A study of Mus musculus with 2 samples.

Results

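The 113 DNaseI sites described here lie in and around 6 genes that build and maintain the B lineage: Ebf1, Pax5, Ikzf1, Ikzf3, Bcl6 and Pou2af1. They were chosen by position, as the sites that overlap 1 window of the mm9 genome around each gene, and they are 0.211% of the 53593 sites listed for the tumour. The windows together span 1370 kb. DNaseI cuts DNA where nucleosomes are absent or displaced, and a site is a stretch given in the authors' list. The tumour, T6, is a lymphoma of the Eμ-myc mouse on a C57/Bl6 background, in which Myc is driven in B cells by the immunoglobulin heavy chain enhancer. It was Arf-/- and Trp53+/+ and was untreated. Cells came from lymph nodes pressed through a strainer, with no purification, and are labelled as B cells, so a site may come from any cell of the node. One DNaseI library was analysed, and its input library was not analysed here.

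Ebf1 and Pax5 are the factors that specify the B lineage and hold cells to it: EBF1 opens chromatin at B cell genes and activates Pax5, and PAX5 switches on B cell genes while silencing those of other lineages. Ikzf1 encodes Ikaros and Ikzf3 encodes Aiolos, zinc finger proteins of one family. Ikaros acts already in early progenitors, and Aiolos mainly in later B cell stages. Bcl6 encodes a repressor required for germinal centre B cells, and Pou2af1 encodes a coactivator, also called OBF-1 or BOB.1, that joins Oct factors on the octamer sequence. DNaseI sites around such genes commonly mark promoters and enhancers, but the list gives positions and no gene expression, so neither the labelled cell type nor the activity of any gene could be checked from it.

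The sites have a chromosome, a start and an end only. Depth and the strength of each site are unknown, and there is no replicate. All differences below are therefore described with no test. The intervals are 95% exact Poisson intervals for counts and exact (Clopper-Pearson) binomial intervals for shares, and order statistics for medians. They cover counting error only, treat neighbouring sites as independent and are not adjusted for the number of comparisons. Positions of sites are on mm9 and counted from 1. Which sites are intronic, exonic, promoter or flanking was not analysed here, because the gene table used, from RefSeq, is on GRCm38.p6. It served for names, neighbours and promoter sequence only, and place is given within each window instead.

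The promoter sequences of 3 members are shown, since open chromatin commonly lies at the start of an active gene. These 3 were taken because the listed start coincides with the 5′ end of the gene's whole extent in RefSeq, which none of the listed starts of Ikzf1 and Bcl6 does, so that only sequence before the gene is printed. Each run is the 250 bases before the start, 5′ to 3′ on the strand of the gene, from RefSeq on GRCm38.p6, at chr4:44710695-44710944 on the minus strand for Pax5, chr11:44617850-44618099 on the plus strand for Ebf1 and chr9:51213440-51213689 on the plus strand for Pou2af1. Those positions belong to another build than the sites and cannot be set against them. Capitals mark the single match to any of the motifs searched.
Pax5: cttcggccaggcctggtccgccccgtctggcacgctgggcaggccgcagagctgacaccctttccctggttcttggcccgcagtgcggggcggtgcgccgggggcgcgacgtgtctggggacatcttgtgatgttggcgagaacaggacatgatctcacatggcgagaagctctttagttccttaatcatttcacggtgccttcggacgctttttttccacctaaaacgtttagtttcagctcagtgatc
Ebf1: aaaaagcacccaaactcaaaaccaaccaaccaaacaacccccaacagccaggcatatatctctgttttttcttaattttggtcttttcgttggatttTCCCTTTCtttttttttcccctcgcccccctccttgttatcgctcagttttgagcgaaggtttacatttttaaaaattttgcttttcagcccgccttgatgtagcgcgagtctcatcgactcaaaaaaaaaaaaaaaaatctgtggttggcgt
Pou2af1: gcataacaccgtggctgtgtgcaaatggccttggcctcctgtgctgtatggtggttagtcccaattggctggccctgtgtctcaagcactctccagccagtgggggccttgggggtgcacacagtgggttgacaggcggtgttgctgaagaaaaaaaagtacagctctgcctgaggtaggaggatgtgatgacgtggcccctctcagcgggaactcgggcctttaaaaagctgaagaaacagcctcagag

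The table held 8 starts of 5 members and none for Ikzf3. Motifs (7 in all) of B lineage factors were searched as plain letters on both strands of these 250 bases, and 3 of the 8 promoters held 1 match each. The share of all promoters with a match to any of the 7 was not analysed here, so that count has no background. The capitals in Ebf1 are the IRF letters GAAANNGA read on the other strand, which 18.1% of all 32851 promoters in the table hold. The Ikaros letters TGGGAA were in 1 member promoter, the other listed start of Ebf1, and in 21.6% of all. The EBF letters CCCNNGGG, which read the same on both strands, were in 1 of the Ikzf1 promoters and in 11.8% of all. That Ikzf1 promoter is the one of 82% G and C, where letters fixed as C or G are likelier than in the average promoter. The octamer ATGCAAAT (1.60% of all promoters), the PU.1 letters GAGGAAGT (2.44%), the E-box CAGGTG (17.2%) and the BCL6 letters TTCCTAGAA (0.347%) were in none of the 8. Base composition differed between starts, within a gene as well as between genes. The Pax5 run was 58.8% G and C with 19 CpG, and that of Pou2af1 was 56% with 5 CpG. In Ebf1 the printed run was 40% with 9 CpG, and that of the other Ebf1 start 52% with 14 CpG. Of the Ikzf1 starts, one had 82% with 44 CpG and the other 47.6% with 1 CpG. The medians over all promoters were 52.4% and 6 CpG.

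All 6 windows held more sites for their length than the autosomes on average, and the Ikzf1 window ranked first when every listed site was counted. Over the 6 windows there were 82.5 sites per Mb (68.0 to 99.2), against 21.4 per Mb over the autosomes, a ratio of 3.86. Sites covered 7.80% of the windows and 1.72% of the autosomes. Of windows of matching length laid end to end over the autosomes and X, 0.403% held as many sites as the Ikzf1 window, 5.03% as many as the Ikzf3 window and 6.51% as many as the Bcl6 window. The Pax5 window was equalled or passed by 9.38%, the Pou2af1 window by 11.0% and the Ebf1 window by 13.9%. These backgrounds include regions with no gene, and 37.6 to 56.0% of the windows laid end to end were empty, so any window with a gene may rank high in them. Among windows with at least 1 site the shares were 0.837% for Ikzf1, 11.2% for Ikzf3, 14% for Bcl6, 17.6% for Pax5, 22.3% for Ebf1 and 25% for Pou2af1. Among windows of the same chromosome they were 0.592% for Ikzf1, 4.72% for Bcl6, 10.9% for Pax5, 11.6% for Ikzf3, 12.3% for Pou2af1 and 35.1% for Ebf1. Windows chosen for holding a gene were not analysed as a background.

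**Figure D1:**
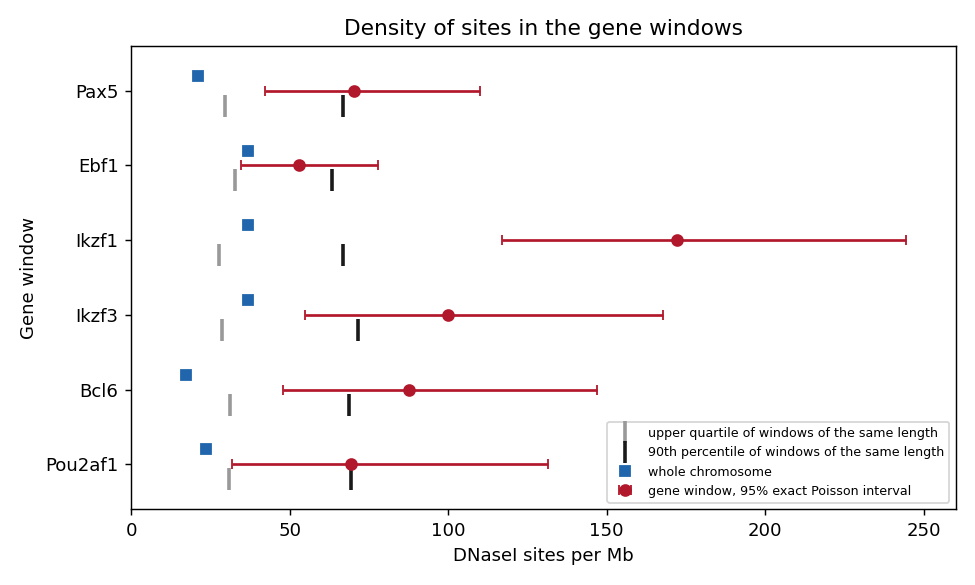
Density of DNaseI sites (sites per Mb, horizontal axis) in each gene window (red points, bars are 95% exact Poisson intervals), beside the density of its chromosome (blue squares) and the upper quartile and 90th percentile of windows of the same length (grey and black ticks). Ikzf1 stands highest at 172.2 sites per Mb, and the interval of Ebf1 alone reaches down past the density of its chromosome.

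In order of density, Ikzf1 came first with 172.2 sites per Mb (117.0 to 244.5), followed by Ikzf3 with 100 (54.7 to 167.8) and Bcl6 with 87.5 (47.8 to 146.8). Pax5 had 70.4 (42.4 to 109.9), Pou2af1 69.2 (31.7 to 131.4) and Ebf1 53.1 (34.7 to 77.7). No neighbours in this order differed beyond counting error: the ratio of Ikzf1 to Ikzf3 was 1.72 (0.89 to 3.50), and that of Pax5 to Pou2af1 was 1.02 (0.44 to 2.55). With every listed site counted, Ikzf1 did differ beyond it from Bcl6 (1.97 times, 1.02 to 4.004), Pax5 (2.45, 1.34 to 4.59), Pou2af1 (2.49, 1.16 to 5.94) and Ebf1 (3.25, 1.86 to 5.69). Among the other 5 windows no pair did. Ikzf1 stands out here as the densest of the 6, and these intervals make no allowance for that choice. The lead of Ikzf1 was not kept among sites wider than the median of the whole list. There Ikzf3 was the densest window with 10 sites, Ikzf1 followed with 11 in its longer window, and Ikzf1 no longer differed beyond counting error from Pax5 (1.27 times, 0.51 to 3.07), Pou2af1 (1.59, 0.51 to 5.83), Bcl6 (1.63, 0.55 to 5.37) or Ebf1 (1.87, 0.79 to 4.29). With sites at most 1 kb apart joined, the ratio to Bcl6 alone of these 4 came to include equality (1.78, 0.83 to 4.06), as it also did with sites wholly inside and with shorter or longer windows (1.71 to 1.90 times).

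The windows of Ebf1, Ikzf1 and Ikzf3 lie on chromosome 11, which is dense in sites throughout. Relative to that chromosome's 36.7 sites per Mb, Ikzf1 had 4.69 times the density (3.19 to 6.66), Ikzf3 2.73 times (1.49 to 4.57) and Ebf1 1.45 times (0.94 to 2.12). The interval for Ebf1 includes equality, so an excess of this window over its chromosome was not detectable at this count. Bcl6 had 5.06 times the density of chromosome 16 (2.77 to 8.49), Pax5 3.33 times that of chromosome 4 (2.004 to 5.20) and Pou2af1 2.95 times that of chromosome 9 (1.35 to 5.61).

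**Figure D2:**
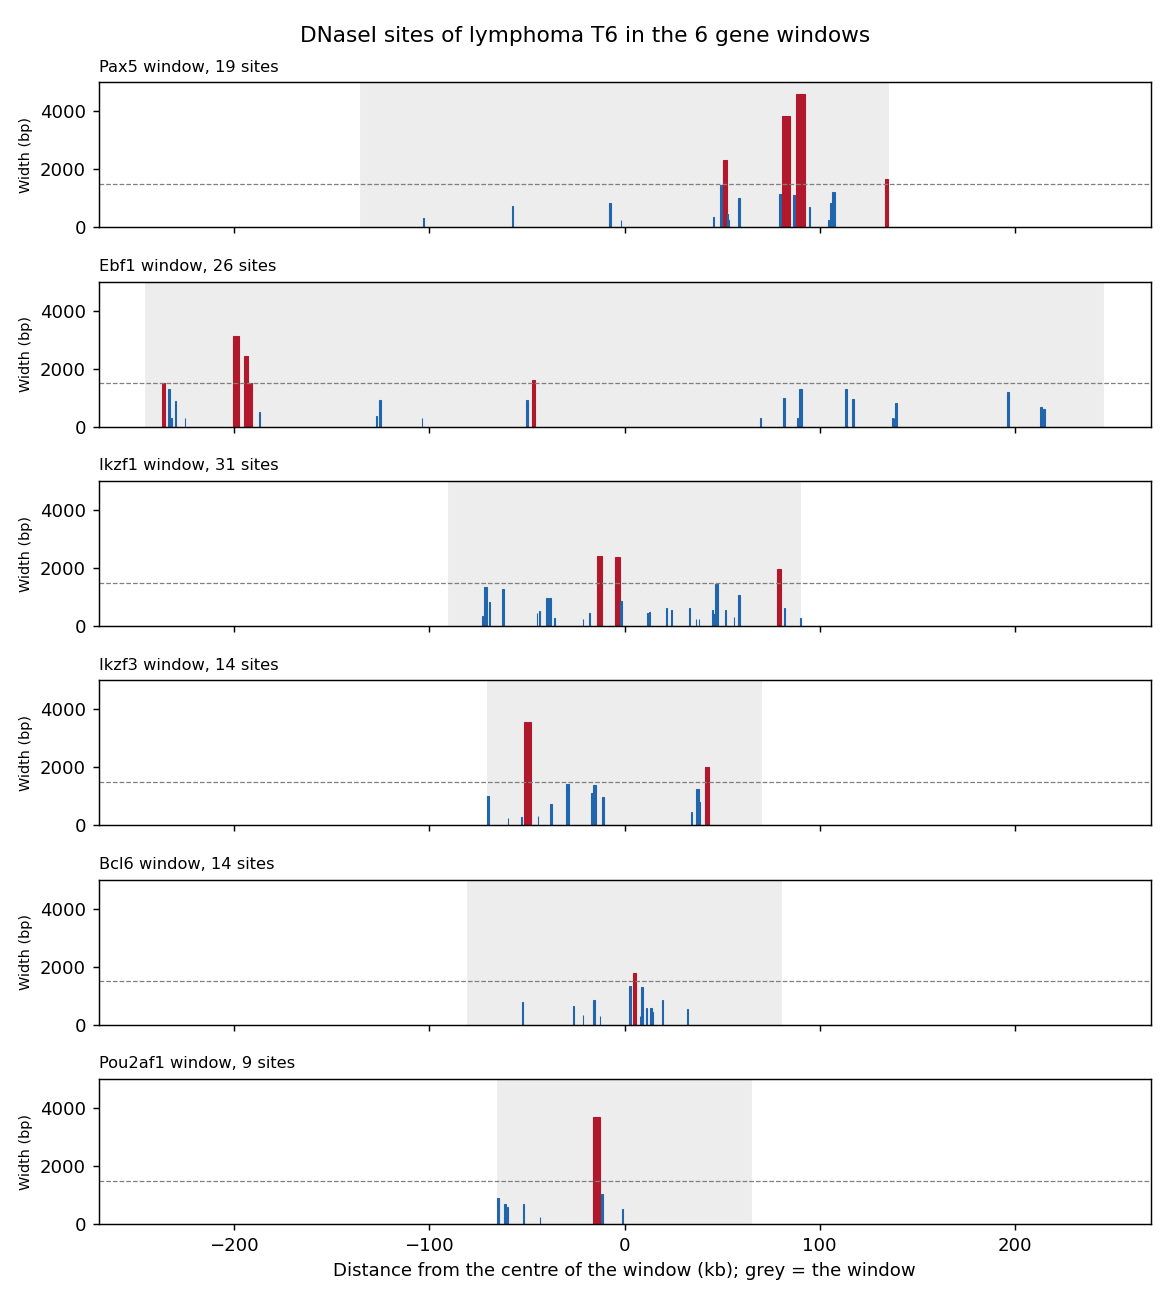
Position of each site in the 6 windows (horizontal axis, kb from the centre of the window, grey band) and its width (vertical axis, bp), with sites wider than 1500 bp (dashed line) in red and the others in blue. Outlines thicken the narrowest bars, so heights and not bar widths are to be read. Wide sites sit towards the high end in Pax5 and the low end in Ebf1, and sites are spread most evenly in Ikzf1.

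The Ebf1 window, 490 kb of chromosome 11 (44380000 to 44870000), was the longest and held 26 sites in separated groups. The nearest protein-coding genes to Ebf1 in the gene table are Rnf145 on the lower side and Clint1 on the higher. A first group of 5 sites opened the window (44387834 to 44400032), beginning with a site of 1509 bp. The second group, 4 sites over 14.2 kb (44424188 to 44438418), carried the widest site of the window, 3144 bp (44424188 to 44427331), then one of 2438 bp (44429871 to 44432308) and one of 1520 bp (44432510 to 44434029). Sites covered 53.5% of this group. A site as wide as its widest was present in 4.34% of windows of this length. This share and those given for the other windows below count windows with few or no sites, which have fewer chances of a wide one. This second group is the part of the window where open chromatin was broadest, and its closest pair lay 201 bp apart.

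Beyond that group the sites of the Ebf1 window thinned out. A gap of 59.5 kb led to a pair at 44497869 to 44500179, and a single site of 309 bp stood at 44521034. The remaining wide site, 1603 bp, lay at 44577600 to 44579202. It bordered the longest gap found in any of the 6 windows, 115.2 kb without a site (44579203 to 44694419). After it came 12 sites of at most 1317 bp, ending with one of 621 bp at 44839581 to 44840201. The median gap in this window was 3.88 kb over 25 gaps, and 7 gaps exceeded 20 kb, so close groups and long empty stretches alternate.

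The Pax5 window, 270 kb of chromosome 4 (44500000 to 44770000), held 19 sites, and the 2 widest sites of all 113 lay in it. Pax5 has Melk on its lower side and Zcchc7 on its higher side in the gene table. The widest site covered 4581 bp (44723070 to 44727650) and ranked 45 in the whole list of 53593. The next covered 3837 bp (44715796 to 44719632) and ranked 107. Of windows of this length, 0.421% held a site as wide as the first, but 46.7% held no site at all.

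These 2 sites belong to 5 sites within 15.8 kb (44714378 to 44730144) that covered 72.1% of that stretch. The other 3 were of 1136, 1111 and 705 bp, and the gaps between the 5 ran from 282 to 1833 bp. With 3 further sites up to 44742598 they made a cluster of 8 over 28.2 kb at the joining distance of 12.5 kb. A second dense stretch, 6 sites over 13.6 kb, ran from 44680416 to 44693982. It held a site of 2305 bp (44685220 to 44687524), separated by 61 bp from one of 1474 bp below it and by 54 bp from one of 470 bp above it. The gap of 54 bp is the shortest among the 113 sites, and 4 sites there form an almost unbroken open stretch of 4.69 kb, 95.8% covered.

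By contrast, the lower part of the Pax5 window was sparse. Its first site, 308 bp, began at 44531917, and 4 sites in all lay in the lower part up to the centre of the window. The long gaps around them were 45.1, 49.0 and 47.2 kb, the longest being 44578104 to 44627148. The last site of the window, 1664 bp (44768557 to 44770220), crossed the window's end after a gap of 26.0 kb. Zcchc7 is the next gene on that side, and whether this site belongs to it was not analysed here.

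The Ikzf1 window, 180 kb of chromosome 11 (11540000 to 11720000), held 31 sites and was the most densely covered, at 13.3% of its bases. In the gene table Ikzf1 lies between 4930512M02Rik and Fignl1. Its median width was the lowest of the 6, 571 bp, with an interval (437 to 871) that overlaps those of all the others, and 8 sites were under 400 bp. A pair of sites near the centre were the widest, one of 2420 bp (11616000 to 11618419) and one of 2374 bp (11625202 to 11627575). A site as wide as the first was present in 5.66% of windows of this length. The second lay 92 bp from a site of 871 bp, the closest pair of the window. A further site of 1960 bp (11708114 to 11710073) followed the longest gap, 18.8 kb (11689352 to 11708113). Fignl1 is the next gene on the higher side, and whether this site belongs to it was not analysed here.

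That longest gap was the smallest of its kind among the 6 windows, and Ikzf1 was the one window with no gap over 20 kb. From its first site, 354 bp at 11556953, to its last, 290 bp at 11719999 to 11720288, the sites fell into 5 groups at 12.5 kb. The largest held 14 sites over 47.6 kb (11641762 to 11689351), none of them wider than 1500 bp, and covered 16.6% of its length. It is one of 2 clusters of 10 or more sites in the windows. Within it, 4 sites at 11674679 to 11677937 were separated by 222, 101 and 222 bp. At a joining distance of 25 kb all 31 sites fell into 1 cluster, with 1 more site that lay 0.172 kb past the last of them.

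The Ikzf3 window, 140 kb of chromosome 11 (98300000 to 98440000), held 14 sites in 2 groups. Ikzf3 stands between Grb7 and Zpbp2 in the gene table. A cluster of 10 sites over 59.7 kb ran from 98299733, just outside the window, to 98359423. It contained the widest site of the window, 3573 bp (98318413 to 98321985), which ranked 151 in the list. Of windows of this length, 0.760% held a site as wide, but 55.1% held no site at all. Median width was the highest of the 6 windows at 1006 bp, but its interval (316 to 1420) spans the medians of all the others.

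After 44.5 kb without a site (98359424 to 98403897), the second Ikzf3 group followed with 4 sites over 9.46 kb. Its widest, 2012 bp (98411346 to 98413357), was the last of the window. A pair in this group was the closest of the window, 61 bp apart (98407961 and 98408023). No site lay in the remaining 26.6 kb. Open chromatin in this window was therefore split between a long loose group and a short compact one, 47.8% covered. Grb7 is the next gene on the lower side and Zpbp2 on the higher. Whether any of these sites belongs to them was not analysed here.

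Around Bcl6, 160 kb of chromosome 16 (23900000 to 24060000) held 14 sites gathered near the centre. Rtp2 and Lpp are its protein-coding neighbours in the gene table. The largest cluster at the joining distance of 12.5 kb held 9 sites over 30.6 kb (23982146 to 24012775), 25.5% covered. Joined at 5 kb, 8 of these sites lay within 17.8 kb (23982146 to 23999956) and covered 40.6% of it. The widest site of the window, 1804 bp (23984139 to 23985942), was the least wide of the 6 widest, and 13.9% of windows of this length held one at least as wide. Beside it were sites of 1340 bp (23982146 to 23983485) and 1292 bp (23988206 to 23989497), the latter 93 bp from a site of 310 bp.

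The outer parts of the Bcl6 window were nearly empty. Its first site, 793 bp, was at 23927423 to 23928215, followed by the longest gap, 25.4 kb (23928216 to 23953628). A loose group of 4 sites came next (23953629 to 23967591). The last site, 564 bp, ended at 24012775, leaving 47.2 kb of the window without a site.

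Pou2af1 had the fewest sites, 9 in 130 kb of chromosome 9 (50970000 to 51100000), but one of the widest. Its neighbours in the gene table are Gm32742 and Colca2. Of windows of this length, 0.602% held a site as wide as the widest of Pou2af1, but 56.0% held no site at all. The widest site covered 3711 bp (51018809 to 51022519) and ranked 128 in the list. It lay 0.623 kb from a site of 1043 bp, and its other side bordered the longest gap, 27.0 kb (50991855 to 51018808). The 6 sites before that gap, of 258 to 907 bp, included 3 at 50973450 to 50975436 separated by 62 and 124 bp. The first of the 6, 907 bp, began at 50969645, before the window. The last site, 537 bp, ended at 51034012, and the 66.0 kb above it held none.

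Every window held at least 1 site wider than 1500 bp, which 18.3% (Pou2af1) to 38.8% (Ebf1) of windows of the same lengths also did. For Pax5 that background was 28.7%, for Ikzf1 22.6%, for Bcl6 20.9% and for Ikzf3 19.2%. Of the background windows 37.6 to 56.0% held no site, and a window with many sites more easily holds one over 1500 bp. Of the 113 sites, 16 were wide in this sense, 14.2% (8.32 to 21.97%), against 11.4% of the whole list. Ebf1 had 5 of them, Pax5 4, Ikzf1 3, Ikzf3 2, and Bcl6 and Pou2af1 1 each. Narrow sites of under 400 bp numbered 28, or 24.8% (17.1 to 33.8%), against 30.5% of the list. Both shares include the share of the whole list in their intervals. The median width was 725 bp (587 to 894), with 663 bp in the whole list.

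At the far end of the widths the share was above that of the list. The widest 1% of the list (0.998% of it) held 5 of them, 4.42% (1.45 to 10.02%), and they were the 2 widest of Pax5 and the widest of Ebf1, Ikzf3 and Pou2af1. This limit was chosen after the widths were seen. At the lower end, 3 sites (2.65%, 0.55 to 7.56%) had the minimum width of the list, 249 bp, against 2.41% of the list, 2 in Pax5 and 1 in Ikzf1.

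**Figure D3:**
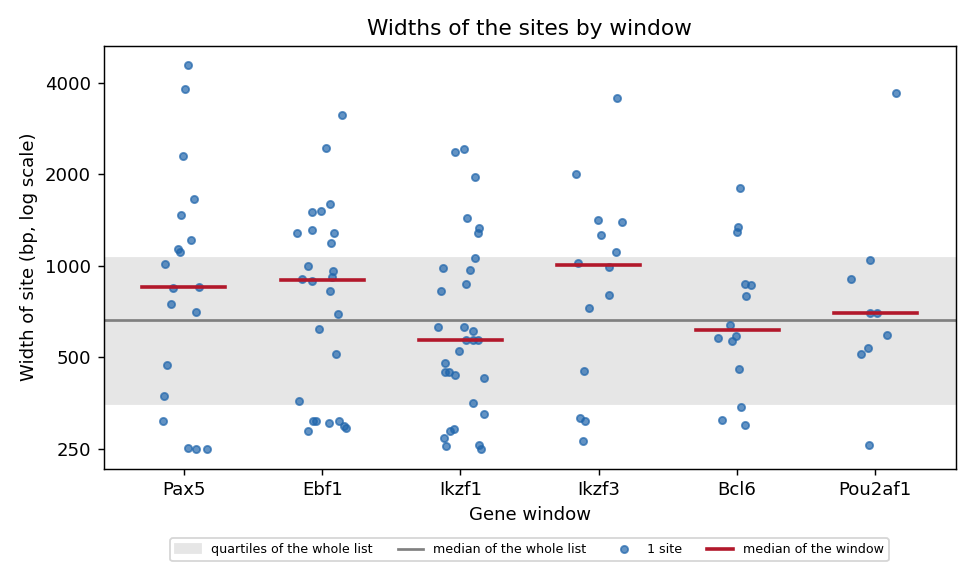
Width of every site (bp, log scale) by window, with the median of each window (red line) and the quartiles and median of the whole list (grey band and line). Most sites of each window lie inside or near the band, and the widest sites of Pax5, Ebf1, Ikzf3 and Pou2af1 reach 3144 bp or more.

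Sites in these windows lay closer together than sites in general. The median of the 107 gaps within windows was 2.90 kb (2.10 to 4.64), against 7.05 kb in the whole list. By window the median was 2.37 kb in Pax5, 2.45 kb in Bcl6, 2.78 kb in Ikzf1, 3.55 kb in Ikzf3, 3.88 kb in Ebf1 and 5.25 kb in Pou2af1. Gaps longer than 12.5 kb were 20.6% of the gaps (13.4 to 29.5%), against 38.2% of the list, and gaps over 20 kb were 14.0% (8.06 to 22.1%), against 28.2%. Gaps that run past the edge of a window are not counted and no gap can exceed its window, which by itself lowers the median and the share of long gaps. Very close sites differed less from the list, with 28.0% of gaps at most 1 kb long (19.8 to 37.5%), against 22.2%. Sites with another site at most 500 bp away made up 31.9% (23.4 to 41.3%), against 31.4% of the list, and 24 of the 113 (21.2%, 14.1 to 29.9%) lay in clusters of 10 or more, against 17.9%.

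**Figure D4:**
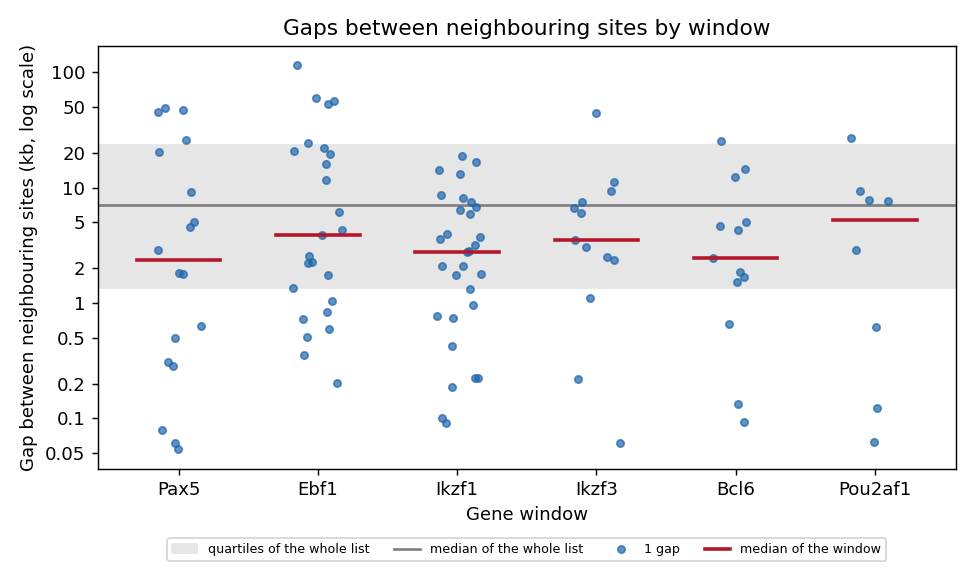
Gap from each site to the one before it in the same window (kb, log scale), with the median of each window (red line) and the quartiles and median of all gaps of the list (grey band and line). The 6 medians, 2.37 to 5.25 kb, lie below the 7.05 kb of the list, and the longest gap, 115.2 kb, is in Ebf1.

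With every listed site counted, Ikzf1 was the one gene whose window exceeded the regions of equal length on both sides of it beyond counting error. Those regions held 13 sites below and 3 above its 31, a ratio of 2.38 (1.21 to 4.97) and of 10.3 (3.22 to 52.8). Among sites wider than the median, the lower side held 7 against 11 (1.57 times, 0.56 to 4.78), which includes equality. Bcl6 and Pou2af1 exceeded only the lower side beyond it. The region above Bcl6 held 8 sites against 14 (1.75 times, 0.69 to 4.81), that above Pou2af1 held 3 against 9 (3 times, 0.75 to 17.2), and the regions below held 1 each. Pax5 exceeded the 5 sites of its lower side (3.80 times, 1.37 to 13.0), but its upper side held 20 against its 19 (0.95 times, 0.48 to 1.88). Ikzf3 was flanked by 13 and 14 sites, close to its own 14, and Ebf1 by 21 and 19 against 26, and neither differed beyond counting error from either side. These regions may hold other genes, and their length follows that of the window.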

How the data were processed

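DNaseI sequencing of 1 lymphoma gave 1 deposited list of sites with 3 columns and no header, the chromosome, start and end. BWA 0.6.2, SAMtools and the mm9 build are named in the submitters' processing notes. How sites were called, filtered or set against the input is not given in the sources used here. Width depends on those settings and on depth, and the caller may split 1 open region into several sites. Starts were changed to count from 1. Windows came from the selection rule, and any overlap counted. Windows of equal length were laid from the first base of each autosome and X to its last site. Sites at most 12.5 kb apart were joined into clusters. The first, last, widest and all wide sites, the longest gap, the closest pair and the largest cluster of each window are named by rule. Sites named beyond these were chosen after their values were seen. The windows, members, motifs and limits were chosen with earlier results of these data known. Motifs had been planned for the sites on mm9 and were searched in promoters instead. Alternatives were wider sites only, joined sites, whole overlap, windows changed by 10% at each end, covered bases, other backgrounds, joining at 5 and 25 kb, and another width limit. The counting of sites, gaps, clusters and covered bases was checked on simulated data, and the other calculations were not. Calculations used scipy 1.17.1, pandas 2.3.3 and numpy 2.4.6 under Python 3.11.15, with plots by matplotlib 3.10.9.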

Additional observations from a re-analysis of the deposited data

How the results depend on the processing

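The ratio of the density in the 6 windows to that of the autosomes stayed within its counting error in every setting tried, between 3.62 with longer windows and 4.52 by covered bases. The number of sites was 61 with sites wider than the median alone, where a lower number follows from the setting itself, and 83 to 127 in the other settings. The median gap was 7.49 kb among the wider sites and 6.06 kb with sites at most 1 kb apart joined, with 15.8 and 12.1 kb in the whole list. Among windows with at least 1 site, up to 25% held as many sites as a gene window (Pou2af1), and among windows of the same chromosome up to 35.1% (Ebf1), against at most 13.9% in the main setting. Clusters of 10 or more sites reaching into the windows numbered 0 at a joining distance of 5 kb and 5 at 25 kb, against 2. Of the 5, that at Ebf1 had 9 of its 24 sites in the window. Shortening the windows left 5 sites in that of Pou2af1. The ratios of Ikzf1 to the other windows and to the regions beside it under these settings were added after seeing the data. Placement at genes and motifs in sites were not run. No test between groups or paired analysis was possible because there was 1 library. Depth is unknown, so no stricter limit on signal was possible, and a weak site cannot be told from a strong one.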

Other observations

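The side of the window on which wide sites lay was compared with the strand of the gene, after the map of sites had been seen. The promoter table gives a strand for 5 of the 6 genes: Ebf1, Ikzf1 and Pou2af1 read towards higher positions, and Pax5 and Bcl6 towards lower ones. Of the 14 sites wider than 1500 bp in these 5 windows, 13 lay on the side of the window's centre that faces the 5′ end of the gene, and 1 on the other side, in Ikzf1. For Pax5 the counts were 4 and 0, for Ebf1 5 and 0, for Ikzf1 2 and 1, and for Bcl6 and Pou2af1 1 and 0 each. The Bcl6 site was centred 85.0 kb into its window of 160 kb, close to the centre. On the 5′ side of Ikzf1, 1 site was centred 86.4 kb into 180 kb, also close to it. In Pax5 the 4 include the site of 1664 bp that crossed the window's end. Ikzf3 is left out of these counts for want of a strand. Its 2 wide sites lay 1 on each side of the centre, so either strand would add 1 to each side. In the 5 windows, sites of all widths were less one-sided, with 61 of 99 on the 5′ side. They were 15 of 19 in Pax5, 14 of 26 in Ebf1, 14 of 31 in Ikzf1, 9 of 14 in Bcl6 and 9 of 9 in Pou2af1. Strands were taken from GRCm38.p6, the centre of a window is not the centre of its gene, and the distance of each site from a transcript start was not analysed here.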
